A study of Solanum lycopersicum with 4 samples.

Results

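A set of 10 SBP-box genes of tomato (Solanum lycopersicum) was followed in the wild-type shoot apical meristem, the dome of dividing cells at the shoot tip, at floral transition and before it. The 10 genes were given as a list of identifiers, and each row of the table was matched on the first 14 characters of its identifier. All 10 were found, among 34722 genes in the table. One of them, Solyc02g077920, is CNR, and the files give no name to the other 9. RNA sequencing covered 2 libraries of transitional meristems (replicates A and B) and 2 libraries of vegetative meristems that had made 6 leaves (replicates C and D). All 4 are of wild-type (WT) genotype and come from seedlings fixed in acetone before dissection. The labels give 2 to 12 days in the greenhouse, the same range for both stages. The labels give no cultivar, no number of plants behind a library and no word on whether replicates came from separate plants, so the p-values measure only the spread between these libraries, which may be technical.

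SBP-box genes encode plant transcription factors that bind DNA through a zinc-binding SBP domain. In Arabidopsis many of them are cut or silenced by the microRNA miR156, which declines as the shoot ages, and the rising SBP-box proteins then promote the adult phase and flowering. They do so partly through MADS-box genes of the FRUITFULL and SOC1 classes, through LEAFY, and through miR172, which restrains AP2-like repressors of flowering. CNR is best known from tomato fruit, through the Colorless non-ripening epimutant, in which its expression is low and ripening is blocked. Which of the other 9 genes carry a miR156 site is not annotated in the files, and no role of its own is given to any of them here.

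The libraries held 21977345 and 22094423 reads in genes for transitional libraries A and B, and 16141074 and 23043526 for vegetative libraries C and D. Values are normalised counts, that is, a gene's reads divided by 1 size factor per library, with no correction for transcript length. A count of 0 allows a level of up to 2.93 to 4.14 normalised counts, depending on the library (3 reads), a limit that covers counting error only. The dissected tissue carried the meristem markers listed for it: the 5 identifiers entered from memory of the nomenclature as KNOX, WUSCHEL and CLAVATA class all had reads in every library and summed to 11917 and 11398 normalised counts in transitional libraries A and B, against 15280 and 14429 in vegetative libraries C and D. Of 8 genes entered as petal, stamen and carpel genes, 4 had no read in any library, while Solyc02g084630 had 668 and 624 normalised counts in transitional libraries A and B, against 639 and 633 in vegetative libraries C and D. Solyc06g064840, of the same list, had 73.0 and 207 in transitional libraries A and B, against 195 and 163 in vegetative libraries C and D.

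The 10 SBP-box genes together held a similar amount of signal at both stages, but it was divided differently. Solyc05g015840, the gene with the most reads, fell at the transition, and Solyc05g015510 rose. Solyc10g078700 stood 1.57-fold higher but missed the threshold, and the remaining 7 genes were not called either. In bulk tissue, less RNA per cell and fewer cells of an expressing type cannot be told apart.

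Solyc05g015840 stood at 4501 and 5010 normalised counts in transitional libraries A and B, against 7365 and 7536 in vegetative libraries C and D. Both transitional values lay well below both vegetative ones. The means were 4756 ± 360 in transitional and 7450 ± 121 in vegetative meristems (SD, n = 2 each), so the transitional level was 63.8% of the vegetative one. The log2 change was -0.65 (SE 0.09, 95% interval -0.85 to -0.45, limma adjusted p = 0.00952, Benjamini-Hochberg over all 19607 genes tested). The drop exceeded the spread in either group, since replicates lay 0.15 apart on the log2 scale at the transition and 0.03 apart before it. With reads of 4441 to 7704 per library, counting error was small: the exact 95% Poisson intervals ran from 4370 to 4635 and from 4871 to 5151 in transitional libraries A and B, and from 7168 to 7565 and from 7368 to 7706 in vegetative libraries C and D.

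Solyc05g015510 stood at 2774 and 2916 normalised counts in transitional libraries A and B, against 2150 and 2178 in vegetative libraries C and D. The groups did not overlap, and replicates lay 0.07 apart on the log2 scale at the transition and 0.02 apart before it. It averaged 2845 ± 100.2 in transitional and 2164 ± 20.4 in vegetative meristems (SD, n = 2 each). The log2 change of 0.39 (SE 0.07, 95% interval 0.22 to 0.57) is a 1.31-fold rise, with a limma adjusted p of 0.0341. Solyc05g015510 and Solyc05g015840 were the 2 members called of 10, in a comparison where limma called 3.89% of all genes tested, 2.7% higher and 1.19% lower. Both were also called in the same direction by edgeR on whole reads recovered from the values (adjusted p = 0.039 and 0.0129), which called 3.53% of genes. Without vegetative C or without D, Solyc05g015840 had log2 changes of -0.67 and -0.63, and Solyc05g015510 had 0.38 and 0.40. Both calls were lost in these fits, where the lone vegetative library was assumed to vary like the transitional pair. With limma that loss was shared by all genes it had called. With edgeR some genes were still called in such fits, but neither of these members was. The cause of the loss was not tested. Without the filter on low values both calls were also lost (limma adjusted p = 0.0798 for Solyc05g015840 and 0.104 for Solyc05g015510).

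Solyc10g078700 had the largest positive log2 difference of the 10 and the widest gap between transitional replicates among the 4 most read members. It stood at 1871 and 2589 normalised counts in transitional libraries A and B, against 1422 and 1381 in vegetative libraries C and D. Both transitional values lay above both vegetative ones, but A and B lay 0.47 apart on the log2 scale while C and D lay 0.04 apart. The Poisson intervals of A (1787 to 1958) and B (2490 to 2691) did not meet, so the transitional replicates differed by more than read counting gives. The log2 difference was 0.65 (SE 0.14, 95% interval 0.31 to 0.99), 1.57-fold higher, with a limma adjusted p of 0.058 and an edgeR adjusted p of 0.0608, so it was not called. DESeq2 on the recovered reads called it higher (adjusted p = 0.000513). Without transitional replicate A its limma log2 difference was 0.88, and without B it was 0.42. In each of these fits the lone transitional library was assumed to vary like the vegetative pair, so no call is given. Without vegetative C or D the log2 differences were 0.67 and 0.63, in fits where limma kept no call for any gene.

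**Figure D1:**
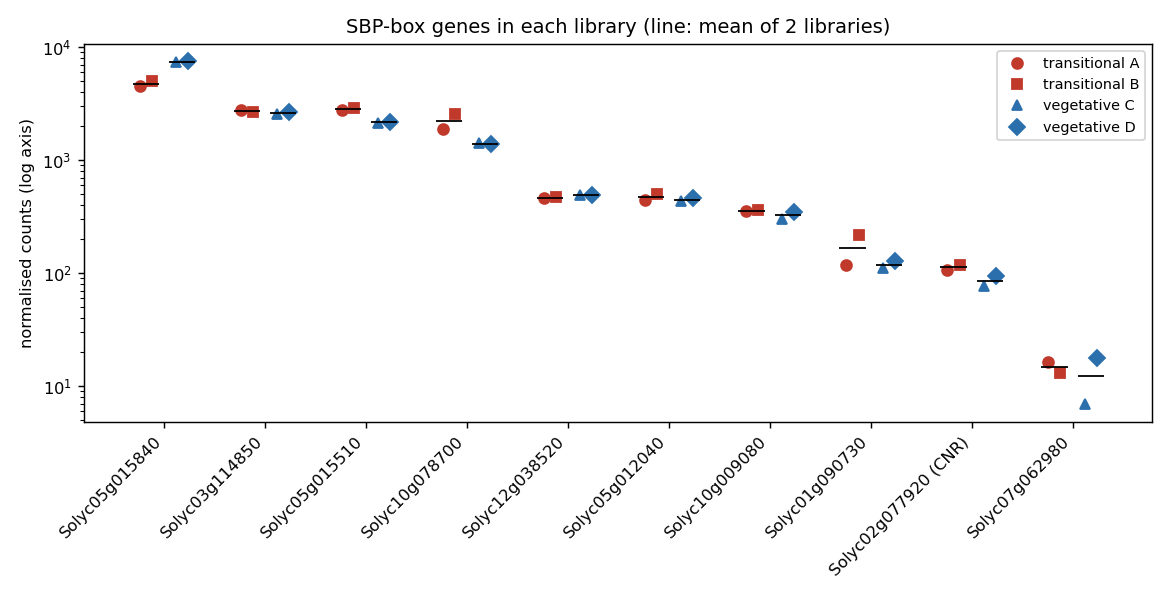
Normalised counts (log axis) of the 10 SBP-box genes in the transitional libraries A and B (red) and the vegetative libraries C and D (blue), with a line at the mean of each pair. Solyc05g015840 lies lower in both transitional libraries (4501 and 5010 against 7365 and 7536), Solyc05g015510 and Solyc10g078700 lie higher, and the vegetative pair is tighter than the transitional pair in 3 of the 4 genes with the most reads.

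Set against all genes, the sizes of these differences were as follows. A log2 change at least as large as that of Solyc05g015840, in either direction, was seen in 10.4% of all genes tested and in 1.94% of the 5506 tested genes that averaged 1000 normalised counts or more. For Solyc05g015510 those shares were 19.1% and 5.32%, and for Solyc10g078700 10.3% and 1.93%. The median log2 change was 0.25 over the 10 members and 0.01 over all genes tested, and 8 of 10 members had a positive log2 change, as did 10024 of the 19607 genes tested.

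Solyc03g114850 had the smallest log2 difference of the 4 most read members. It stood at 2780 and 2695 normalised counts in transitional libraries A and B, against 2587 and 2685 in vegetative libraries C and D. The groups lay side by side, with transitional B about level with vegetative D. The log2 difference was 0.05 (SE 0.07, limma adjusted p = 0.765), and its 95% interval of 0.92-fold to 1.17-fold does not reach the fitted 0.64-fold of Solyc05g015840.

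Another 3 members, of intermediate signal, also showed small differences with narrow intervals. Solyc12g038520 stood at 465 and 468 normalised counts in transitional libraries A and B, against 488 and 488 in vegetative libraries C and D (log2 difference -0.06, SE 0.09, limma adjusted p = 0.783, 0.82-fold to 1.11-fold). Solyc05g012040 stood at 447 and 504 in transitional libraries A and B, against 435 and 459 in vegetative libraries C and D (log2 difference 0.09, SE 0.11, limma adjusted p = 0.736, 0.89-fold to 1.27-fold). Solyc10g009080 stood at 353 and 361 in transitional libraries A and B, against 302 and 351 in vegetative libraries C and D (log2 difference 0.13, SE 0.12, limma adjusted p = 0.634, 0.90-fold to 1.33-fold). All 3 intervals include no change, and a 2-fold change in either direction lies outside each.

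CNR, Solyc02g077920, was among the weakly read members in the meristem, with 56 to 118 reads per library. It stood at 107 and 119 normalised counts in transitional libraries A and B, against 77.3 and 93.9 in vegetative libraries C and D. Both transitional values exceeded both vegetative ones, but the Poisson intervals of transitional A (88.0 to 130) and vegetative D (76.1 to 115) overlapped. The log2 difference of 0.41 (SE 0.19, 95% interval -0.05 to 0.86) did not pass the test (limma adjusted p = 0.332). Its size is close to that of Solyc05g015510, at a standard error more than 2 times as large.

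Solyc01g090730 stood at 119 and 219 normalised counts in transitional libraries A and B, against 110 and 127 in vegetative libraries C and D. Transitional B stood apart from the other 3 libraries, and transitional A lay inside the vegetative range. The Poisson intervals of A (98.1 to 142) and B (190 to 250) did not meet. The log2 difference was 0.44 (SE 0.28, limma adjusted p = 0.481). The value rests on replicate B: without transitional A its limma log2 difference was 0.88, and without B it was 0.0013. With edgeR the difference without B was -0.0079, a change of sign at a value near 0. Solyc10g078700 and Solyc01g090730 thus both stood higher in transitional B than in A, by 0.47 and 0.88 on the log2 scale. So did most other members, by smaller gaps.

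Solyc07g062980 was close to the limit of detection, with 5 to 18 reads per library. It stood at 16.2 and 13.2 normalised counts in transitional libraries A and B, against 6.90 and 17.6 in vegetative libraries C and D. The vegetative values enclosed the transitional ones, and the 95% interval of the fold ran from 0.55 to 3.03, so no change was detectable at this depth (limma adjusted p = 0.781). The values of the 2 stages did not overlap in 7 of the 10 members, nor in 49.3% of all genes tested.

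**Figure D2:**
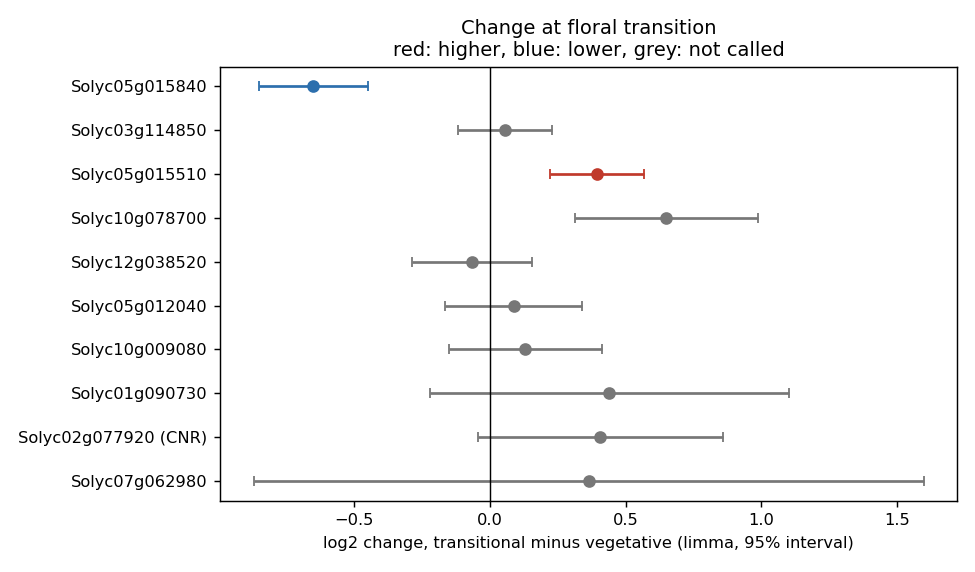
Log2 change (transitional minus vegetative) of each SBP-box gene with its 95% interval from limma, ordered by vegetative signal. One interval lies wholly below 0 (Solyc05g015840) and those of Solyc05g015510 and Solyc10g078700 lie wholly above it, while the intervals widen toward the genes with few reads.

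Shares of the reads of the 10 listed genes show which of these the sequencing saw most. Any SBP-box gene outside the list is not counted. These are shares of reads, not of molecules, because a longer transcript collects more reads and the files give no lengths. A share is free of the library's size factor, but a change of share in percentage points still depends on the lengths of all 10 transcripts. The 4 most read genes took 88.8% and 88.7% of the reads of the 10 in transitional libraries A and B, against 90.5% and 89.97% in vegetative libraries C and D. The other 6, CNR included, shared the rest.

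Solyc05g015840 held 33.5% and 33.6% of these reads in transitional libraries A and B (95% Wilson intervals 32.7 to 34.3 and 32.9 to 34.4), against 49.3% and 49.2% in vegetative libraries C and D (48.3 to 50.2 and 48.4 to 49.98). The loss was 15.7 percentage points, and replicates of a stage agreed to within their counting error. Solyc05g015510 held 20.7% and 19.6% in transitional libraries A and B, against 14.4% and 14.2% in vegetative libraries C and D. Solyc10g078700 held 13.9% and 17.4% in transitional libraries A and B, against 9.52% and 9.02% in vegetative libraries C and D. Solyc03g114850 held 20.7% and 18.1% in transitional libraries A and B, against 17.3% and 17.5% in vegetative libraries C and D. Its mean share was 1.97 percentage points higher while its own level differed by 1.04-fold. With Solyc05g015840 left out, it held 31.1% and 27.3% in transitional libraries A and B, against 34.1% and 34.5% in vegetative libraries C and D. CNR held 0.80% of the reads in both transitional libraries, against 0.52% and 0.61% in vegetative libraries C and D. With 2 libraries against 2, an exact two-sided permutation test cannot go below p = 0.333, so no test of a share is given.

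**Figure D3:**
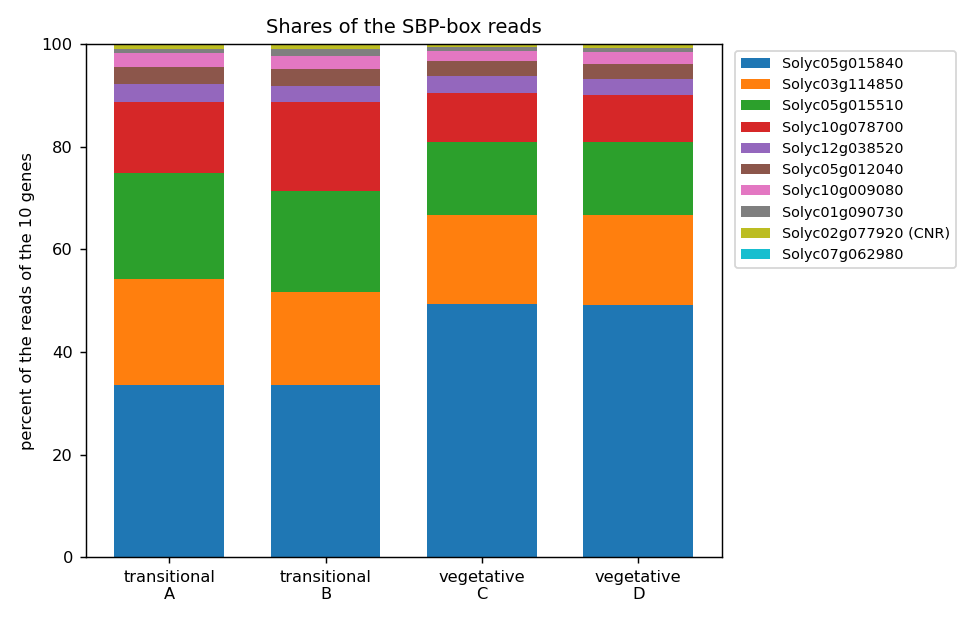
Percent of the reads of the 10 SBP-box genes held by each gene, 1 bar per library. The lowest block, Solyc05g015840, takes 33.5% and 33.6% in transitional libraries A and B against 49.3% and 49.2% in vegetative libraries C and D, and the blocks of Solyc05g015510 and Solyc10g078700 are taller in the transitional bars.

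The summed signal of the 10 genes was 13433 and 14894 normalised counts in transitional libraries A and B, against 14943 and 15317 in vegetative libraries C and D. The transitional sum was 0.94 times the vegetative one, and the sum of transitional B lay just under that of vegetative C. Leaving out Solyc05g015840, the other 9 summed to 8932 and 9884 in transitional libraries A and B, against 7578 and 7781 in vegetative libraries C and D, or 1.23 times the vegetative sum. The 10 genes together took 0.0603% and 0.0666% of all reads in transitional libraries A and B, against 0.0671% and 0.0680% in vegetative libraries C and D.

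Ratios between members within a library do not depend on how libraries are scaled. For each read of Solyc05g015840 there were 0.416 and 0.517 reads of Solyc10g078700 in transitional libraries A and B, against 0.193 and 0.183 in vegetative libraries C and D. The corresponding ratios of Solyc05g015510 were 0.616 and 0.582 in transitional libraries A and B, against 0.292 and 0.289 in vegetative libraries C and D. Both ratios were higher in each transitional library than in either vegetative one. Replicates lay close together beside the gap between stages for Solyc05g015510, while the transitional pair lay further apart for Solyc10g078700. Between the 2 genes that stood higher, Solyc10g078700 over Solyc05g015510, the ratios were 0.674 and 0.888 in transitional libraries A and B, against 0.662 and 0.634 in vegetative libraries C and D, where transitional A lay near the vegetative pair. The relative change of such a ratio is also free of transcript length. A ratio shows unequal change of its genes and not which of them moved.

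The identifiers place the genes on 7 chromosomes, with 3 on chromosome 5 and 2 on chromosome 10. Solyc05g015510, which rose, and Solyc05g015840, which fell, are separated by 32 identifiers in number order. Of those 32, 11 had the mean of 5 normalised counts needed for testing. None of the 11 was called in either direction by limma, nor by edgeR. Over all genes tested limma called 3.89%, so that 0 of 11 is near the background. An unadjusted limma p under 0.05 was seen in 3 of the 11, and in 3470 of all 19607 genes tested. Solyc05g015530, with a log2 difference of 0.48 (95% interval 0.17 to 0.79, limma adjusted p = 0.113), and Solyc05g015720, with 0.60 (95% interval 0.05 to 1.15, limma adjusted p = 0.244), differed by more than the 0.39 of Solyc05g015510 and were not called. The genes beside Solyc05g015840 with signal were Solyc05g015820, at 898 and 892 normalised counts in transitional libraries A and B against 818 and 883 in vegetative libraries C and D, and Solyc05g015860, at 1073 and 1065 in transitional libraries A and B against 1141 and 1172 in vegetative libraries C and D. The sources used here do not say how the authors' counting treated strand and overlapping genes, and reads shared between near-identical family members could be split uncertainly.

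**Figure D4:**
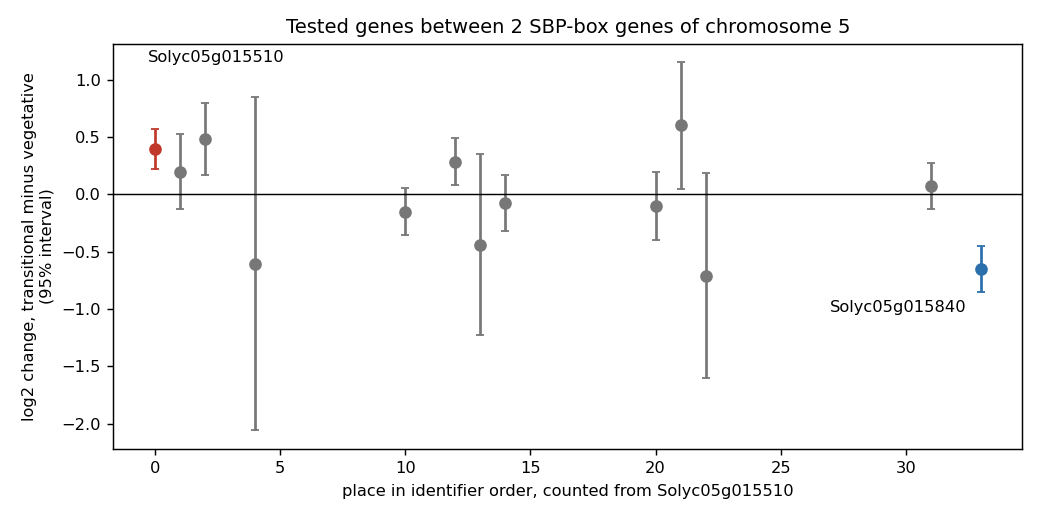
Log2 change with its 95% interval for the tested genes from Solyc05g015510 (red, higher) to Solyc05g015840 (blue, lower), by place in identifier order. The 11 tested genes between them (grey) were not called, though the intervals of 3 of them lie wholly above 0, and untested places are blank.

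Taking the 2 nearest identifiers on each side of every member, 32 of 40 neighbours were tested, and limma called 3 higher and none lower, where it called 2.7% higher and 1.19% lower of all genes tested. All 3 are MADS-box genes by the list used here, which was written from memory of tomato nomenclature with no name table to check it. Solyc12g038510, entered as SEPALLATA class (floral organ and meristem identity), is the identifier just before the member Solyc12g038520. It stood at 108 and 120 normalised counts in transitional libraries A and B, against 8.28 and 1.96 in vegetative libraries C and D (log2 change 4.46, SE 0.54, limma adjusted p = 0.00731). Its SBP-box neighbour differed by -0.06 on that scale.

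The same arrangement was seen on chromosome 3. Solyc03g114840, also entered as SEPALLATA class, stood at 90.2 and 85.0 normalised counts in transitional libraries A and B, against 1.38 and 0 in vegetative libraries C and D (limma adjusted p = 0.00335). The vegetative values rest on 1 read, and the transitional to vegetative ratio of 153 has an exact 95% counting interval from 27.1 to 6079. Solyc03g114830, entered as FRUITFULL class, stood at 996 and 784 in transitional libraries A and B, against 523 and 323 in vegetative libraries C and D (log2 change 1.10, SE 0.22, limma adjusted p = 0.0438). The SBP-box gene Solyc03g114850 follows these identifiers directly and differed by 0.05. Near the member Solyc05g012040, the SEPALLATA-class entry Solyc05g012020 stood at 21.3 and 2.02 in transitional libraries A and B, against 1.38 and 0 in vegetative libraries C and D, and was not called (limma adjusted p = 0.317). The last pair joined the falling member Solyc05g015840 with Solyc05g015750, 9 identifiers away, which had 3 reads in the transitional and 0 in the vegetative libraries and was not tested. The 3 MADS-box rises thus stood beside SBP-box genes whose own differences were small; whether the neighbours' changes differ was not tested.

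**Figure D5:**
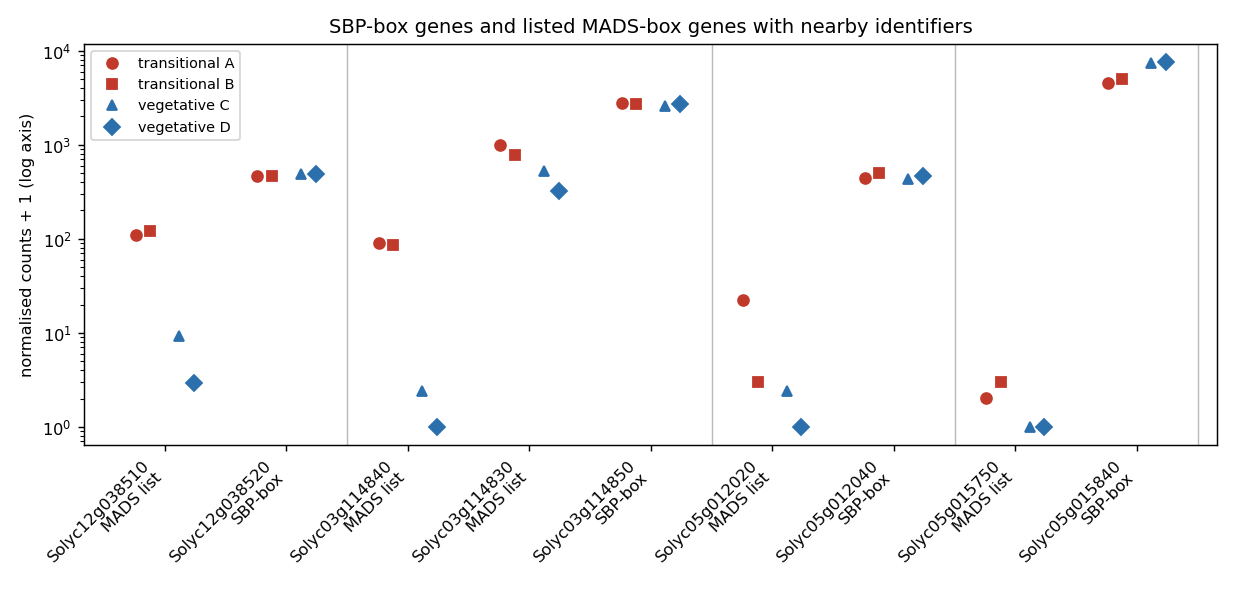
Normalised counts plus 1 (log axis) in each library for listed MADS-box genes and the SBP-box gene with a nearby identifier, separated by grey lines. Solyc12g038510, Solyc03g114840 and Solyc03g114830 lie higher in the transitional libraries (red), while Solyc12g038520 and Solyc03g114850 beside them stand at nearly the same height in all 4 libraries.

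Genes of the classes that SBP proteins act on in Arabidopsis were read from lists written in the same way. All lists used here were chosen with earlier results of these data known, so their shares called are descriptive only. Without vegetative library C, or without D, limma called no gene of the table, these lists included (1586 and 1874 at an unadjusted p under 0.05), while edgeR called 81 higher and 17 lower without C and 2 higher without D. Of 8 flowering genes of the FRUITFULL, APETALA1, SOC1 and LEAFY classes, limma called 6 higher and none lower, with a median log2 change of 2.93, where 2.7% of all genes tested were called higher. The APETALA1-class entry Solyc05g056620 stood at 2588 and 1525 normalised counts in transitional libraries A and B, against 138 and 9.78 in vegetative libraries C and D (log2 change 5.68, SE 1.001, limma adjusted p = 0.0273). The FRUITFULL-class entry Solyc06g069430 stood at 882 and 594 in transitional libraries A and B, against 160 and 82.2 in vegetative libraries C and D (log2 change 2.65, SE 0.31, limma adjusted p = 0.00691). The other entries called higher were Solyc02g089210 and Solyc02g065730 (FRUITFULL class), Solyc01g093960 (SOC1 class) and Solyc03g114830, described above. Solyc05g056620 and Solyc06g069430 had more signal in library A than in B, and more in C than in D. The SBP-box genes Solyc10g078700 and Solyc01g090730 stood higher in B than in A, as did most other members. The SBP-box members summed to 13433 normalised counts in transitional A and 14894 in B. Most flowering entries went the other way, Solyc01g092950 excepted, and the list summed to 14663 in transitional A and 12530 in B. The genes named here were picked after their values were seen, and differences between replicates were not tested. The entries for an abundant SOC1-class gene, Solyc01g092950, and for LEAFY, Solyc03g118160, were not called (limma adjusted p = 0.141 and 0.455).

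Of 8 AP2-like genes, 1 fell and none rose by limma, with a median log2 change of -0.39, where 1.19% of all genes tested were called lower and the median was 0.01. The one that fell, Solyc02g064960, stood at 1538 and 2157 normalised counts in transitional libraries A and B, against 4084 and 3855 in vegetative libraries C and D (log2 change -1.12, SE 0.15, limma adjusted p = 0.00963).

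Lists for other tissue and for handling were read beside the same background, 2.7% of all genes tested called higher and 1.19% lower. Of 11 tested wound and jasmonate genes, limma called 6 higher and 1 lower, and the 13 listed summed to 19237 and 12665 normalised counts in transitional libraries A and B, against 6450 and 6810 in vegetative libraries C and D. Of 21 tested leaf photosynthesis genes 3 fell and none rose, and the 23 listed summed to 15792 and 10045 in transitional libraries A and B, against 13737 and 16044 in vegetative libraries C and D. Of the 5 meristem genes 2 fell, Solyc04g081590 and Solyc11g071380, both entered as CLAVATA class, which restricts stem cells. Of the 3 tested genes of petals, stamens and carpels, 1 rose: Solyc02g071730, at 22.3 and 15.2 normalised counts in transitional libraries A and B, against 0 and 0.98 in vegetative libraries C and D. The part of these differences in the SBP-box results was not tested.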

How the data were processed

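The authors deposited 1 table whose signal is each gene's count over a size factor of its library. Tools listed in the submitters' processing notes, with no role or order, are DESeq2 1.6.3, HTSeq 0.6.1p1 and TopHat2 2.0.10. Build, annotation and strand setting: not given in the sources used here. All values (100%) were whole multiples of 1 step per library (relative tolerance 1e-06), which gave back whole reads and size factors of 0.987 and 0.988 (transitional A and B) and 0.725 and 1.02 (vegetative C and D). The titles' replicate letters are used. Of 34722 identifiers 0 matched the RefSeq gene table (SLM_r2.1). It lists CNR by name, on chromosome 2. No sequences are shown.

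limma 3.58.1 (trend, R 4.3.3) was run on log2(value + 1) for the 19607 genes averaging 5 normalised counts or more, with stage as the only term and Benjamini-Hochberg adjusted p under 0.05 as the threshold. This scale understates changes of low genes. Residual degrees of freedom were 2, prior 5.18. No replicate label is shared between stages, so nothing was paired. The limma steps were tested on simulated data, in which the planted changes were larger than those of the called members. edgeR 4.0.16 on whole reads called 485 genes higher and 207 lower, of which 690 were also among the 762 called by limma. Other alternatives were DESeq2 1.42.0, limma-voom, other pseudocounts, filters and scalings, and leaving out each library; edgeR without each library was added after the data were seen. Named are the 10 members, called members of the lists and the identifiers next to members, with further ones chosen after their values were seen. The members and lists were chosen with earlier results of these data known. Python 3.11.15 and SciPy 1.17.1 gave intervals.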

Additional observations from a re-analysis of the deposited data

How the results depend on the processing

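Solyc05g015840 and Solyc05g015510 kept their direction in all 17 alternatives, with log2 changes of -0.73 to -0.57 and 0.36 to 0.43, and lost their call in 5 of them: without a filter (adjusted p = 0.0798 and 0.104) and without vegetative C or D, by limma or edgeR. Without a filter limma called 0 members in either direction and 6 genes higher and 1 lower of all. DESeq2 called 2 members higher. Leaving out 1 library gave 0 to 3 members higher, 0 to 1 lower, 0 to 1745 genes higher and 0 to 1081 lower of all. The zeros came without vegetative C or D, where limma called 0 genes (1586 and 1874 at an unadjusted p under 0.05) and edgeR 81 higher and 17 lower, and 2 higher and 0 lower; the lone library was assumed to vary like the other stage. The cause was not tested. Solyc01g090730 ranged from -0.0079 to 0.88 and Solyc07g062980 from -0.26 to 1.07 when 1 library was left out, the first changing sign with edgeR alone. The median log2 change of all genes lay between 0.0012 and 0.0134 under every setting run. Without Solyc05g015840 the summed signal ratio was 1.23 and not 0.94, and the mean share (transitional minus vegetative) differed by -5.12 points for Solyc03g114850 and 2.10 for Solyc05g015510, since the removed reads leave the denominator. Solyc07g062980, at 52 reads in all, and CNR, at 376, are limited by depth.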
